A study of Mus musculus with 105 samples.

Results

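The cluster of miR-302 and miR-367 is a group of 5 microRNA (miRNA) hairpins that lie next to each other on mouse chromosome 3. The 5 guide strands of those hairpins, mmu-miR-302a-3p, mmu-miR-302b-3p, mmu-miR-302c-3p, mmu-miR-302d-3p and mmu-miR-367-3p (the prefix mmu, for mouse, is left out from here on), were taken by name from every small-RNA table, and all 5 were found among 1013 miRNAs. The samples were mouse embryonic stem cells (ESC), dividing embryonic fibroblasts (DMEF), contact-inhibited embryonic fibroblasts (CIMEF, which have stopped dividing) and contact-inhibited fibroblasts without the long noncoding RNA Cyrano (CyrKO). All were labelled with 5-ethynyluridine (5EU), which replaces uridine in RNA made after its addition and lets that RNA be pulled down. EU libraries come from the pulled-down small RNA and input libraries from small RNA of the same cells without pulldown.

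The ESC were the v6.5 line, labelled with strain C57BL/6, at passages 5 to 15, kept without serum in N2 and B27 with LIF and the inhibitors PD0325901 and CHIR99021, and they received 125 µM 5EU. The fibroblasts were grown in serum and received 400 µM 5EU, and the CIMEF were held at contact for 5 days first. The ESC, DMEF and CIMEF each gave 2 time courses and the knockout 1. ESC course 1 was sampled at 0, 1, 2, 4, 8, 16 and 24 h and course 2 at the same times without 0 h. The libraries of 1 course share a culture series, so the course is the replicate between lines. All 13 EU and 13 input libraries of ESC and all 34 EU and 34 input libraries of fibroblasts were used. Nothing in the labels says that the 2 courses of a line came from separate animals or derivations, so p-values measure only the spread between these courses.

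The cluster is transcribed as a single precursor in pluripotent cells, where Oct4, Sox2 and Nanog bind its promoter. Its miR-302 members carry the same seed (bases 2 to 8, which pair with target messenger RNAs) as the miR-290 family of mouse stem cells, and they repress inhibitors of the cell cycle. MiR-367 has a different seed, shared with miR-25, miR-32, miR-92 and miR-363. In the mouse embryo the cluster is best known from the epiblast after implantation.

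In the GRCm38.p6 annotation the hairpins stand on the plus strand of chromosome 3 in the order Mir302b (127545228 to 127545301), Mir302c (127545363 to 127545430), Mir302a (127545496 to 127545564), Mir302d (127545624 to 127545689) and Mir367 (127545733 to 127545807). They span 580 bases within Larp7 (127536714 to 127553349), whose transcript runs on the minus strand. RefSeq holds mature sequences for 4 of the 5 guide strands (all but miR-302a-3p) and for all 5 of the opposite (5p) strands. The guide strands are shown because the members differ in their seeds, and the 5p strands of Mir302a and Mir302b because the labelling data below turn on them. Capitals mark the seed.
miR-302b-3p: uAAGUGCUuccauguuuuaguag
miR-302d-3p: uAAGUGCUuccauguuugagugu
miR-302c-3p: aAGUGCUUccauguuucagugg
miR-367-3p: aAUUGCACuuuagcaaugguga
miR-302a-5p: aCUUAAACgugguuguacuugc
miR-302b-5p: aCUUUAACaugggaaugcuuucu

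MiR-302b-3p and miR-302d-3p share their seed and a run of 17 bases. MiR-302c-3p, as listed, starts 1 base later, so its bases 2 to 8 are shifted by 1 base within the same motif, and its shared run with miR-302b-3p is 16 bases. How reads that could belong to more than 1 of them were assigned is not given in the sources used here, so the split between these members is uncertain to that extent. MiR-367-3p shares no run longer than 5 bases with them. The guide strands contain 10 uridines in miR-302b-3p and miR-302d-3p, 8 in miR-302c-3p and 7 in miR-367-3p, and the 5p strands contain 8 in miR-302a-5p and 9 in miR-302b-5p. Only uridines can carry the label.

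All 5 members were present in ESC and close to absent from fibroblasts. Over its 13 input libraries ESC held 272269 member counts among 35280015 miRNA counts, against 3 among 156158774 in the 34 fibroblast input libraries. The 3 fibroblast counts were 1 each of miR-302b-3p, miR-302c-3p and miR-302d-3p, all in CIMEF course 1, and DMEF and CyrKO had none. In the EU libraries ESC held 7136 member counts of 626508, against 0 of 17487096 in fibroblasts. With the floor at 3 counts over all libraries of a line, input levels in ESC were at least 18022-fold (miR-302a-3p), 34391-fold (miR-302b-3p), 8805-fold (miR-302c-3p), 28705-fold (miR-302d-3p) and 11462-fold (miR-367-3p) higher than in DMEF. Against CIMEF, miR-302a-3p was at least 34266-fold and miR-367-3p at least 21792-fold higher in ESC. The members with 1 CIMEF count had ratios of 196164 for miR-302b-3p (95% interval 35207 to 7748122), 50226 for miR-302c-3p (9014 to 1983908) and 163732 for miR-302d-3p (29386 to 6467176). Against CyrKO the input bounds were at least 9342-fold (miR-302c-3p) to 36486-fold (miR-302b-3p). Intervals and floors cover counting error only.

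The members passed the filter on low counts only through ESC and so had to differ from counts at or near 0: their edgeR calls add nothing to the bounds above. Of 812 miRNAs, 22.8% passed as higher in ESC input when set against DMEF and 27.3% when set against CIMEF, and of 693 miRNAs in EU libraries of the first 4 h, 13.9% and 17.5% were. The EU libraries are shallower, so they allow lower bounds. Over all EU libraries with label, miR-302b-3p was at least 4216-fold and miR-302c-3p at least 1136-fold higher in ESC than in DMEF.

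**Figure D1:**
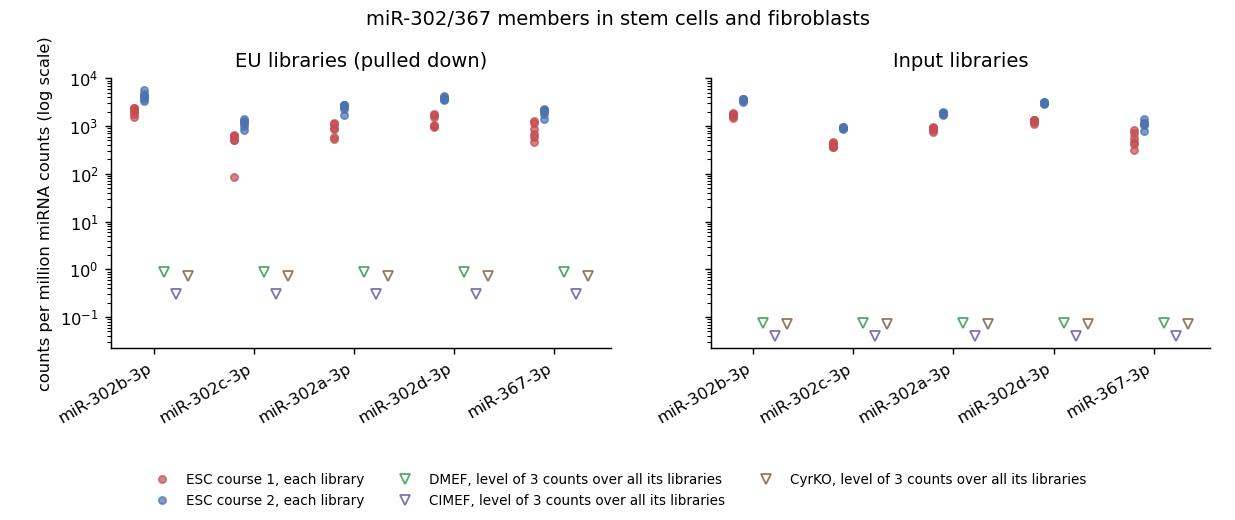
Level of the 5 members in counts per 1000000 miRNA counts (log scale) in EU libraries (left) and input libraries (right). Each point is 1 ESC library, and open triangles mark the level that 3 counts over all libraries of a fibroblast line would have. In input libraries the lowest ESC point is 313.8 counts per 1000000 (miR-367-3p), and the highest triangle is 0.0761.

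The cell identity behind these libraries was read from 2 messenger RNA (mRNA) libraries per wild-type line, of 23030907 to 34093791 counts. All 10 naive pluripotency markers were higher in ESC than in DMEF, where 30.3% of 18094 genes were higher, and all 10 were higher than in CIMEF, where 38.2% were. Their summed level was 4608 and 4566 CPM (for mRNA, counts per 1000000 of the scaled library total) in ESC, against 47.0 and 56.4 CPM in DMEF and 58.2 and 69.2 CPM in CIMEF. The 10 fibroblast markers summed to 2505 and 2536 CPM in ESC, against 34852 and 31305 CPM in DMEF and 34180 and 32090 CPM in CIMEF, and none of the 10 was at 0 in ESC. Fn1, a matrix protein gene, made up most of the ESC sum, with 1737 and 1717 CPM. Of the 7 markers of primed pluripotency, 5 were higher and 1 (Fgf5) lower in ESC than in DMEF. Against CIMEF, 5 were higher and 2 lower. ESC held 0.53 and 0.56 CPM of Fgf5, 0.88 and 0.89 CPM of Otx2 and 0.81 and 0.82 CPM of Pou3f1. Lef1, Dnmt3a, Zic2 and Dnmt3b had 11.8 to 162.4 CPM there. Of 8 early differentiation genes that could be tested, of 10 listed, 5 were higher in ESC than in DMEF (T, Mixl1, Pax6, Sox1 and Cdx2) and 1 (Gata6) lower. Which mRNA library belongs to which labelling course is not given.

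Within ESC the members kept an order. In the input libraries of course 1, miR-302b-3p averaged 1692 ± 128 CPM (counts per 1000000 miRNA counts of the library; SD over 7 libraries), miR-302d-3p 1258 ± 93.7, miR-302a-3p 885.6 ± 66.0, miR-367-3p 594.8 ± 211.5 and miR-302c-3p 409.3 ± 43.5. In course 2 the order was the same, with 3520 ± 196, 3086 ± 135, 1840 ± 90.1, 1105 ± 202 and 915 ± 38.4 CPM (SD over 6 libraries). MiR-302d-3p lay above miR-302a-3p in both courses without overlap between libraries. MiR-367-3p and miR-302c-3p overlapped in both courses, miR-302a-3p and miR-367-3p in course 1, and miR-302b-3p and miR-302d-3p in course 2. These levels placed miR-302b-3p at rank 69 of 822 miRNAs detected in course 1 and 40 of 839 in course 2. MiR-302c-3p, the lowest, ranked 166 and 111. The composition of the cluster was close in both courses: miR-302b-3p made up 35.1% ± 1.4 of the member counts in course 1 and 33.6% ± 1.7 in course 2, and miR-302c-3p 8.47% ± 0.45 and 8.75% ± 0.43 (SD over 7 and 6 input libraries).

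The order did not follow the order of the hairpins along the chromosome. Mir302b is the first hairpin and gave the most counts, whereas Mir302c, the second, gave the fewest in every mean above.

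The ESC courses differed in their level of the whole cluster. Together the members took 4840 ± 480.7 CPM in course 1 and 10467 ± 301.8 CPM in course 2 (SD over 7 and 6 input libraries). MiR-302a-3p had 921, 919, 915, 899, 756, 840 and 948 CPM in course 1 at 0 to 24 h, against 1878, 1929, 1877, 1867, 1671 and 1815 CPM in course 2 at 1 to 24 h. MiR-302d-3p ranged between 1084 and 1368 CPM in course 1 and between 2888 and 3249 CPM in course 2. No library of course 1 reached the lowest library of course 2 for any of the 4 miR-302 members in input.

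Over the 6 shared times the input log2 difference, course 1 minus course 2, was -0.95 for miR-302a-3p (SE 0.07), -0.95 for miR-302b-3p (SE 0.08), -1.07 for miR-302c-3p (SE 0.08), -1.19 for miR-302d-3p (SE 0.08) and -0.95 for miR-367-3p (SE 0.13). All 5 passed in the edgeR quasi-likelihood test (adjusted p 1.6e-07 to 1.4e-04), as did 21.7% of 549 miRNAs in that direction, so course differences were common. In the EU libraries the log2 differences were -1.53 (miR-302a-3p, SE 0.18), -1.11 (miR-302b-3p, SE 0.15), -1.09 (miR-302c-3p, SE 0.21), -1.48 (miR-302d-3p, SE 0.16) and -1.26 (miR-367-3p, SE 0.19). All 5 passed there too (edgeR adjusted p 1.0e-08 to 1.6e-04), beside 17.3% of 196 miRNAs that were lower and 7.65% that were higher in course 1. These tests set 2 single courses against each other, with libraries as replicates. The notes on course 2 name fewer processing tools than those on course 1, so culture and processing cannot be told apart.

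MiRNAs with the same seeds did not shift with the members. The miR-290 relatives with the miR-302 seed were far more abundant: miR-294-3p stood at 118890 ± 8534 CPM in course 1 and 114461 ± 4619 CPM in course 2, miR-291a-3p at 104616 ± 8026 and 101364 ± 4267 CPM, and miR-295-3p at 99423 ± 7962 and 103243 ± 4048 CPM (SD over 7 and 6 input libraries). Their input log2 differences, course 1 minus course 2, were 0.18 (SE 0.09), 0.13 (SE 0.08) and 0.08 (SE 0.09), and none passed in edgeR (adjusted p 0.124, 0.19 and 0.461). The difference between these values and those of the members was not tested. MiR-302b-3p and miR-302d-3p together therefore supplied 0.920% of the counts with that seed in course 1 (exact 95% interval 0.911 to 0.928) and 2.02% in course 2 (2.01 to 2.04). In EU libraries their share was 0.977% (0.911 to 1.05) in course 1 and 2.17% (2.10 to 2.24) in course 2. Seeds were read only for the 831 of 1013 miRNA names with a RefSeq sequence. MiR-302a-3p has none and is therefore left out of these shares, from the members and from the total. The intervals cover counting error only.

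Among the 6 miRNAs with the miR-367-3p seed, miR-92a-3p of the miR-17-92 cluster supplied 75.4% of the input counts in course 1 and 65.1% in course 2, and miR-25-3p 16.3% and 22.7%. MiR-367-3p supplied 1.19% (exact 95% interval 1.16 to 1.22) and 3.08% (3.04 to 3.12). These intervals too cover counting error only, not the spread between libraries. MiR-92a-3p moved the other way from the members, as did 20.8% of miRNAs in that test, with an input log2 difference of 0.84 (SE 0.11, edgeR adjusted p 1.2e-04), course 1 minus course 2. MiR-32-5p, miR-92b-3p and miR-363-3p each made up 2.00% to 3.37% of that seed group. MiR-363-3p differed by 0.21 (SE 0.07, edgeR adjusted p 0.0278) and the differences of miR-25-3p, miR-32-5p and miR-92b-3p were 0.14, 0.25 and 0.04 and did not pass.

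**Figure D2:**
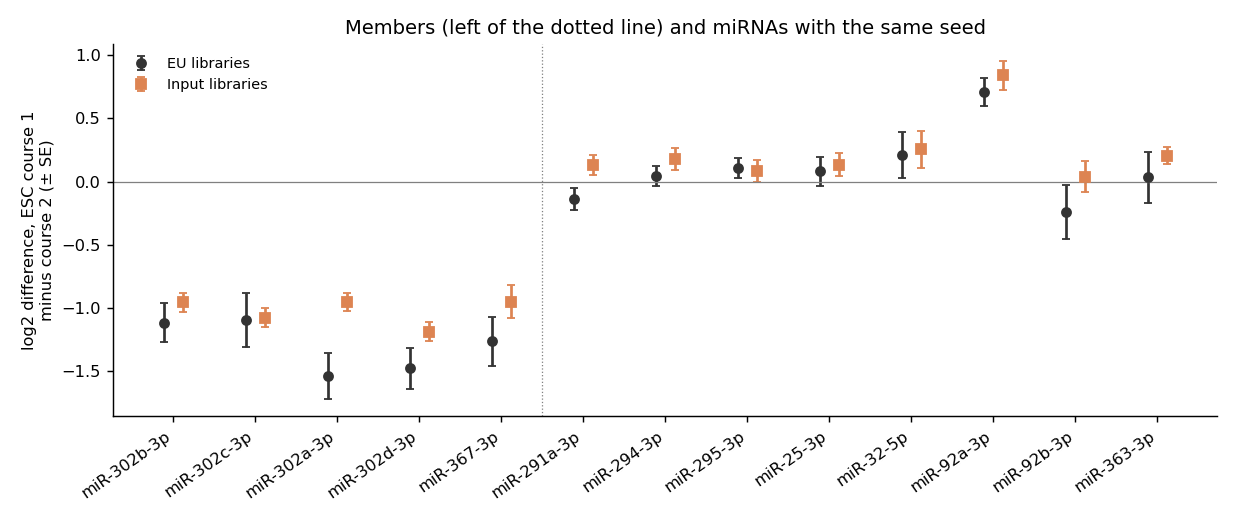
Log2 difference between ESC course 1 and course 2 (points, with SE bars) over the 6 shared times, in EU libraries (circles) and input libraries (squares). The members lie between -0.95 and -1.53, and the 8 miRNAs that share a seed with a member lie between -0.24 and 0.84.

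The 5 miRNAs whose input profile over the 13 ESC libraries was most like that of the members were let-7f-5p, miR-196a-5p, miR-193a-3p, miR-301b-3p and miR-10b-5p. The measure was the root-mean-square difference of centred log2(CPM + 1) values, 0.186 to 0.221 for these, against a median of 0.581 over the candidates, drawn from 284 miRNAs with a mean of at least 100 CPM. The members themselves had 0.081 (miR-302a-3p) to 0.292 (miR-367-3p). Let-7f-5p stood at 163.8 ± 23.8 CPM in ESC course 1 and 414.7 ± 24.2 CPM in course 2, against 19967 and 17812 CPM in the DMEF courses and 19857 and 24408 CPM in the CIMEF courses. MiR-193a-3p also stood far below the fibroblasts in both courses, at 81.9 and 179.4 CPM, against 2695 and 2877 CPM in DMEF and 2375 and 2424 CPM in CIMEF. MiR-196a-5p had 335.4 and 867.9 CPM in the ESC courses, against 81.9 and 4.67 CPM in DMEF, 9.51 and 3.73 CPM in CIMEF and 542.2 CPM in CyrKO. The likest profiles thus include miRNAs that are higher and miRNAs that are lower in DMEF and CIMEF than in ESC. The part of other cells in the difference between the courses was not tested.

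Input levels of the miR-302 members showed no slope past the test during labelling. The slope on labelling time, in log2 units per unit of log2(hours + 1), was -0.03 (SE 0.02) for miR-302a-3p, -0.02 (SE 0.02) for miR-302b-3p, -0.01 (SE 0.02) for miR-302c-3p and -0.00 (SE 0.02) for miR-302d-3p. None of the 5 members passed (edgeR adjusted p 0.477 to 0.99), where 4.15% of 579 miRNAs did.

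MiR-367-3p varied most. In course 1 its input level was 885, 701, 550, 429, 314, 469 and 815 CPM at 0, 1, 2, 4, 8, 16 and 24 h, and in course 2 it was 1101, 1408, 779, 1055, 1140 and 1149 CPM at 1 to 24 h. The low point lay at 8 h in course 1 and at 4 h in course 2. Counting error does not cover this, since the exact 95% intervals were 288.3 to 341.0 CPM at 8 h and 851.6 to 920.0 CPM at 0 h. The other members moved far less in the same libraries, so the ratio of miR-367-3p to miR-302a-3p fell as low as 0.415 at 8 h of course 1, beside 0.961 at 0 h and 0.859 at 24 h, and it was 0.415 at 4 h of course 2. In course 1 the 8 h library was also the shallowest (1778102 miRNA counts) and the 24 h library the deepest (3983530), and the part of depth was not tested. A wide input spread was also seen in miR-32-5p, a miRNA with the same seed as miR-367-3p. MiR-32-5p had 1425 ± 497.3 CPM in course 1 and 1157 ± 244.1 CPM in course 2 (SD over 7 and 6 libraries). MiR-363-3p, which also has that seed, spread less, at 991.5 ± 45.3 and 920.9 ± 33.7 CPM. The linear slope of miR-367-3p was -0.07 (SE 0.06, edgeR adjusted p 0.604). Without the 24 h libraries, where 97 of 569 miRNAs passed (37 of them falling), the slope of miR-367-3p was -0.21 (edgeR adjusted p 0.0288). Its slope differed between the courses by -0.08 (SE 0.13, edgeR adjusted p 0.992), course 1 minus course 2. No miRNA passed that test of 594 (0.0%), with 23 at an unadjusted p under 0.05 in edgeR, and none passed in DESeq2 either.

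**Figure D3:**
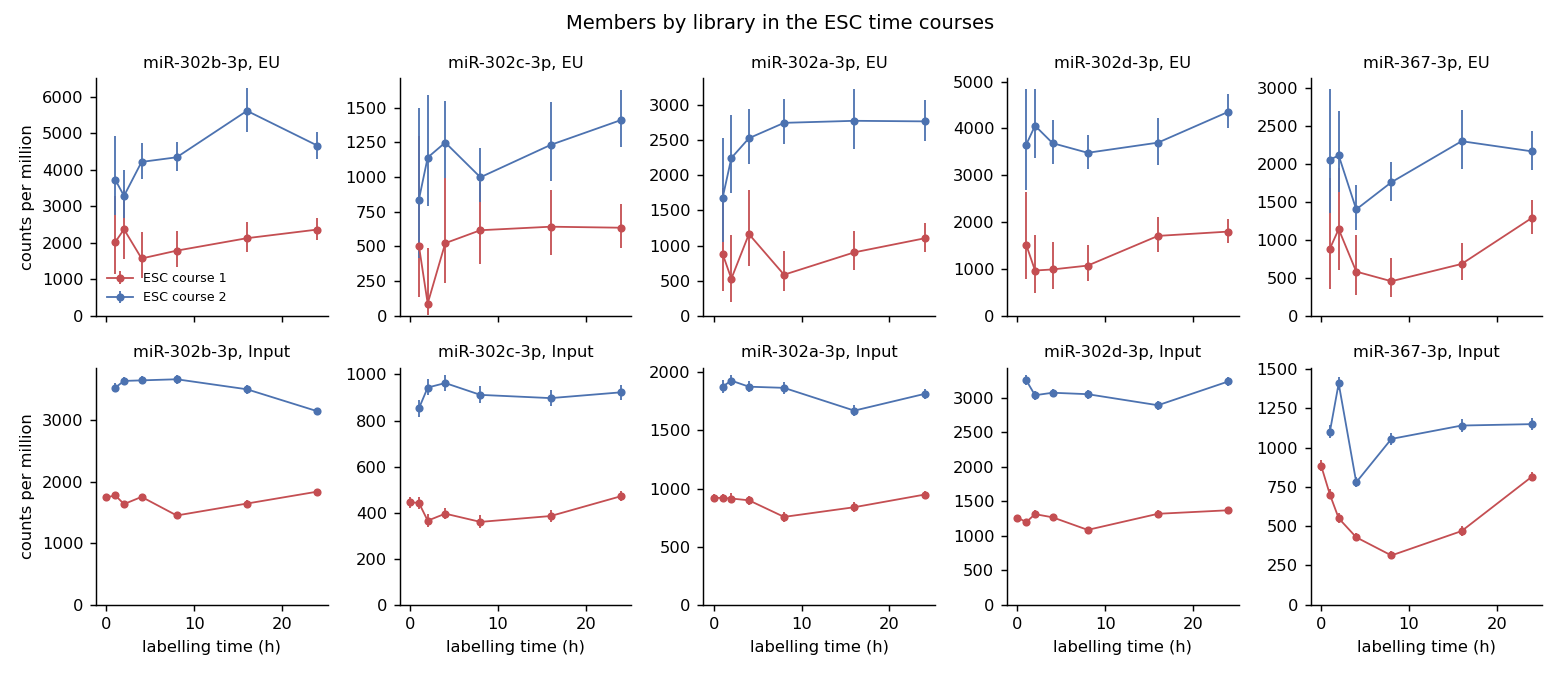
CPM of each member by labelling time in EU libraries (upper row) and input libraries (lower row) of the ESC courses. Points are libraries and bars are exact 95% Poisson intervals, which cover counting error only. The miR-302 members lie flat in input, with course 1 below course 2, and miR-367-3p dips to 314 CPM at 8 h of course 1.

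Labelled members appeared within the first hour. In the 0 h EU library of course 1, which measures background, the members had 1 (miR-302a-3p), 1 (miR-302b-3p), 1 (miR-302c-3p), 2 (miR-302d-3p) and 0 (miR-367-3p) counts among 1196. At 1 h, course 1 gave 7, 16, 4, 12 and 7 counts among 7922, and course 2 gave 22, 49, 11, 48 and 27 among 13137. Relative to the synthetic RNA standards of the pulldown, miR-302b-3p had 4.52 counts per 1000000 standard counts at 0 h, and 118.2, 317.1, 422.9, 466.9, 910.8 and 1672 at 1, 2, 4, 8, 16 and 24 h of course 1. In course 2 it had 617.4, 1098, 2651, 4142, 7277 and 8283 at the same times. In course 2 all 5 members were higher at each later time. In course 1 this held for miR-302b-3p and miR-302d-3p, whereas miR-302a-3p had 152.8 at 8 h after 313.2 at 4 h, miR-367-3p 118.8 at 8 h after 156.6 at 4 h, and miR-302c-3p 11.7 at 2 h after 29.5 at 1 h. All 5 were highest at 24 h in both courses.

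As a share of labelled miRNA, no guide strand changed with labelling time by the test. The EU slopes per doubling of labelling time were 0.06 (SE 0.06) for miR-302a-3p, 0.03 (SE 0.04) for miR-302b-3p, 0.07 (SE 0.07) for miR-302c-3p, 0.01 (SE 0.05) for miR-302d-3p and 0.01 (SE 0.07) for miR-367-3p. None of the 5 passed (edgeR adjusted p 0.461 to 0.957), where 29.7% of 239 miRNAs did. The EU slope of no member differed between the courses either (adjusted p 0.915 to 1), and 1 of 260 miRNAs (0.385%) passed that test.

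Half-lives were fitted as an exponential approach to a plateau, with no term for cell growth. Dilution by cell division was therefore not separated from decay. MiR-302b-3p, the only member with at least 20 counts in each EU library from 4 h in both courses, gave 9.94 h in course 1 and 12.7 h in course 2. In course 2 miR-302a-3p and miR-302c-3p gave 11.4 h each, miR-367-3p 9.94 h and miR-302d-3p 8.23 h. The median of all miRNAs with a value inside the fitted range was 8.23 h in course 1 (67 miRNAs) and 9.77 h in course 2 (164 miRNAs). In course 2, 39.9% (miR-302d-3p) to 71.1% (miR-302b-3p) of the fitted miRNAs had shorter half-lives than a member. Over miRNAs fitted in both courses the median SD between courses was 1.57 h, and no difference between members was tested. The 5p strand miR-302a-5p gave 0.277 h in course 2, near the lower end of the range fitted, and 3.47% of the fitted miRNAs gave less. The first EU library of that course was at 1 h, so the sampling does not resolve a value this short.

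These half-lives depend on the standards. Divided by the other standards of the tables, which have counts in EU and in input libraries, miR-302b-3p gave 17.5 h in course 1 and 4.35 h in course 2, and the other members 3.14 to 3.99 h in course 2. Without the 24 h library miR-302b-3p gave 4.20 h in course 1 and 16.4 h in course 2. In course 2, miR-302c-3p then gave 6.93 h and miR-302d-3p 5.26 h. Between the 2 sets of standards the values of the members differed by over 1.5 times in each course, in opposite directions.

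**Figure D4:**
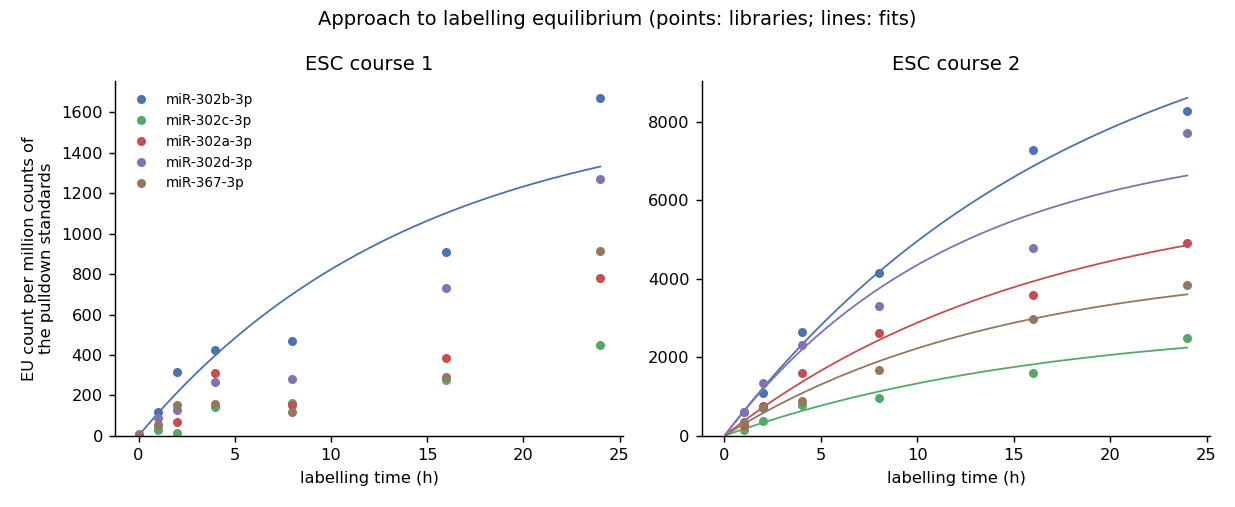
EU level of the members in counts per 1000000 counts of the pulldown standards by labelling time in ESC course 1 (left) and course 2 (right). Points are libraries and lines are the fitted curves of members with enough counts. MiR-302b-3p reaches 1672 at 24 h in course 1 and 8283 in course 2.

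Next, the opposite strands of the same hairpins were examined. A hairpin is cut into a duplex of a 5p and a 3p strand, of which one is usually retained in Argonaute and the other is discarded. In input libraries the 5p strands were the minor ones. They made up 6.24% of both strands for Mir302a in course 1 (exact 95% interval 5.87 to 6.61) and 7.62% in course 2 (7.35 to 7.91). The shares were 1.31% and 1.29% for Mir302b, 1.72% and 1.69% for Mir302c, 2.34% and 2.28% for Mir302d, and 0.151% and 0.174% for Mir367.

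In EU libraries miR-302a-5p and miR-302b-5p were high early and then lost share. MiR-302a-5p had 1262, 790.0, 232.6, 162.3, 120.4 and 107.4 CPM at 1, 2, 4, 8, 16 and 24 h of course 1, and 2131, 1141, 487, 333, 329 and 297 CPM in course 2. At 1 h it outnumbered its guide strand in counts, 10 to 7 in course 1 and 28 to 22 in course 2. Its share of both strands was 58.8% at 1 h of course 1 (exact 95% interval 32.9 to 81.6) and 56.0% at 1 h of course 2 (41.3 to 70.0). Over 8 to 24 h the share was 11.1% in course 1 (7.10 to 16.3) and 10.3% in course 2 (8.38 to 12.4), against 6.02% and 7.85% in the input libraries of those times.

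MiR-302b-5p had 631 CPM at 1 h and 39.1 CPM at 24 h of course 1 (5 and 4 counts). At the same times of course 2 it had 837 and 68.6 CPM (11 and 9 counts). Relative to the pulldown standards, in the unit used for the guide strands, it had 36.9 and 27.6 in course 1. In course 2 it had 138.6 and 121.8. MiR-302a-5p had 73.9 and 76.0 in course 1, and 352.8 and 527.8 in course 2. Times between varied, down to 8.49 for miR-302b-5p at 8 h of course 1 (1 count). Both strands thus lost share from 1 to 24 h without a matching fall relative to the standards. The EU slope per doubling of time was -0.73 for miR-302a-5p (SE 0.08, edgeR adjusted p 5.0e-07) and -0.84 for miR-302b-5p (SE 0.12, adjusted p 1.0e-05), and 23.4% of 239 miRNAs fell in that test. The other 5p strands did not reach the filter on low counts. In course 1 miR-302c-5p had 1, 1 and 0 EU counts and miR-302d-5p 0, 2 and 0 at 1, 2 and 4 h, so their early shares in that course are loose: 12.5% for Mir302c (exact 95% interval 1.55 to 38.3) and 4.76% for Mir302d (0.582 to 16.2). The Mir302d share was 2.58% (1.12 to 5.02) at 8 to 24 h of course 1, within that interval. With no filter, miR-302c-5p had a slope of -0.83 (SE 0.17, adjusted p 8.9e-05) and miR-302d-5p of -0.42 (SE 0.13, adjusted p 0.012). The slopes of miR-302a-5p and miR-302b-5p differed between the courses by -0.15 (SE 0.17) and -0.18 (SE 0.24), which did not pass (edgeR adjusted p 0.971 each). MiR-367-5p had 0 EU counts beside 210 of miR-367-3p in course 1 and 791 in course 2, which allows a share of up to 1.74% and 0.465% (upper exact 95% bounds).

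Over the 4 miR-302 hairpins together, the 5p share of EU counts was 19.5% at 1 to 4 h (exact 95% interval 14.2 to 25.8) and 4.04% at 8 to 24 h (2.93 to 5.43) in course 1. In course 2 it was 13.5% (11.8 to 15.4) and 4.88% (4.23 to 5.60). Input libraries gave 2.63% and 2.65% in those windows of course 1, and 2.95% and 2.98% in course 2. Most hairpins showed the same fall. The set was 92 hairpins with at least 20 counts in each EU window and course, and hairpins of this cluster that reached this were included. The median share of the strand that is minor in ESC input was 10.8% early and 4.46% late in course 1, and 10.1% and 4.30% in course 2. The share was higher early than late in 76 of the 92 in course 1 and 81 of 92 in course 2. The early share of miR-302a-5p was 41.1% in course 1 and 26.9% in course 2, and 6 and 13 of the 92 hairpins had a higher one.

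The early EU counts were also set against the input counts in 1 fit. The log2 difference was 1.91 for miR-302a-5p (SE 0.74), 2.397 for miR-302b-5p (SE 0.77), 2.77 for miR-302c-5p (SE 0.95) and 1.09 for miR-302d-5p (SE 1.04), against a median of -1.11 over 693 miRNAs. None of them passed (edgeR adjusted p 0.121 to 0.564), where 9.38% of miRNAs did. EU and input libraries of a course come from the same cells. With the course as a block the first 3 passed (edgeR adjusted p 2.8e-05, 6.0e-05 and 5.4e-04) while miR-302d-5p did not (0.18). Of 693 miRNAs, 50 passed as higher and 242 as lower with that block. Without CIMEF course 1 the median log2 difference of the 4 tested 5p strands was 2.16, beside -1.10 over all miRNAs. Without CIMEF course 2 it was 3.09, beside -0.16. With all courses and no block, the 5 guide strands lay between -0.30 and -0.77, above the median of all miRNAs, and none passed (edgeR adjusted p 0.52 to 0.825). With the block the median of all miRNAs was -1.11. MiR-302a-3p (-0.75), miR-302b-3p (-0.80) and miR-302d-3p (-0.85) were among the 242 that passed as lower there (edgeR adjusted p 0.0343, 0.0107 and 0.00908). With RLE size factors these 3 lay at -0.05 (miR-302a-3p), -0.13 (miR-302b-3p) and -0.09 (miR-302d-3p), beside a median of all miRNAs of -0.47. Without DMEF course 1 or CIMEF course 2 all 5 guide strands lay above 0 (0.15 to 0.64) and did not pass. In unscaled CPM, the median log2 ratio of EU to input over the 6 times was 0.02 to 0.54 for the members in course 1 and 0.23 to 0.88 in course 2.

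**Figure D5:**
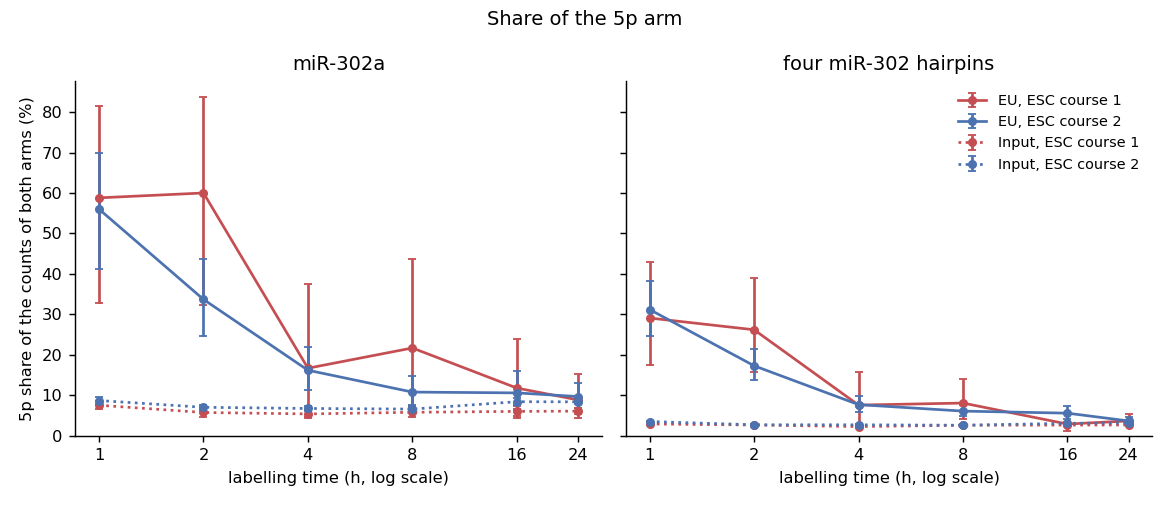
Share of the 5p strand among the counts of both strands, in percent, for Mir302a (left) and the 4 miR-302 hairpins together (right), by labelling time on a log scale. Solid lines are EU libraries, dotted lines input libraries, and bars are exact 95% binomial intervals. The EU share of Mir302a is 58.8% and 56.0% at 1 h and 8.87% and 9.70% at 24 h.

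Messenger RNA of Larp7, of listed regulators and of reported targets was read in the 2 libraries per line. Larp7, which encodes a binding protein of 7SK RNA and overlaps the cluster on the other strand, had 64.2 and 67.6 CPM in ESC, against 58.0 and 58.3 CPM in DMEF and 42.8 and 53.4 CPM in CIMEF. Its log2 difference was 0.18 from DMEF (SE 0.15, edgeR adjusted p 0.341) and 0.45 from CIMEF (SE 0.15, adjusted p 0.0306). The difference from CIMEF did not pass in edgeR without ESC library 1, ESC library 2 or CIMEF library 1 (adjusted p 0.139, 0.225 and 0.19), nor with no filter on low counts (0.0693). The hairpin genes themselves had 1 count in all 6 mRNA libraries, of Mir302a in ESC library 1, in poly(A)-selected RNA that is not made for short precursors.

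Of 8 listed regulators of the locus, 7 were higher in ESC than in DMEF, where 30.3% of all genes were, and 7 than in CIMEF, where 38.2% were. The median log2 difference of the list was 6.63 from DMEF and 6.88 from CIMEF, beside 0.06 over all genes in each comparison. Nanog, a pluripotency factor, had 639.3 and 638.9 CPM in ESC, against 4.36 and 5.54 CPM in DMEF (log2 7.01, SE 0.26). Sall4, a zinc-finger factor of pluripotent cells, had 292.5 and 293.9 CPM in ESC, against 1.52 and 2.90 CPM in DMEF (log2 7.03, SE 0.31). Esrrb and Prdm14, further factors of the naive state, differed from DMEF by log2 values of 6.90 (SE 0.29) and 6.72 (SE 0.60). Tcf7l1, a repressor in the Wnt pathway, was the exception, with -0.30 from DMEF (SE 0.14, edgeR adjusted p 0.107) and -0.96 from CIMEF (SE 0.15, adjusted p 8.8e-04). Klf4, Pou5f1 and Sox2, the other members of the list, were higher in ESC in both comparisons. Pou5f1, Sox2, Nanog, Klf4 and Esrrb also stand among the naive pluripotency markers above, so those results overlap.

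Of 15 genes reported as targets of the miR-302 seed in mouse or human cells, 11 were lower and 3 higher in ESC than in DMEF, where 30.5% of all genes were lower. From CIMEF, 8 were lower and 3 higher, where 37.7% of all genes were lower. The median log2 difference was -1.37 from DMEF and -1.06 from CIMEF, beside 0.06 over all genes in each. Lats2, a kinase of the Hippo pathway, had 3.03 and 2.94 CPM in ESC, against 159.9 and 167.7 CPM in DMEF (log2 -5.78, SE 0.24). The 3 that were higher were Slain1 (7.43, SE 0.50), a microtubule regulator, and the Nodal antagonists Lefty1 (5.73, SE 0.38) and Lefty2 (7.04, SE 0.22), all relative to DMEF. Cdkn1a, which encodes the cell cycle inhibitor p21, had a log2 difference of -1.05 from DMEF (SE 0.24, edgeR adjusted p 0.0072) and of 0.34 from CIMEF (SE 0.24, adjusted p 0.22). The cell types differ in most genes, and the same seed is carried by the far more abundant miR-290 relatives, so these counts cannot be assigned to the members.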

How the data were processed

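All values are raw read counts that the authors deposited, 1 per mature miRNA or gene, with no normalization. Cutadapt stands in all of the submitters' processing notes, and most of them also list STAR 2.4, HTSeq 0.9.1 and the mm10/GRCm38 mouse genome. Those of ESC course 2 and of the knockout name cutadapt only. Per the labels, adaptors carried 4 random bases, and any use of them against PCR duplicates is not given in the sources used here. All 100 columns of 15 tables were used. The members and lists were chosen with earlier results of these data known. Genes were named by rule: the members, their 5p strands, their seed mates, the 5 most like profiles, Larp7 and the 4 list genes that differed most from DMEF. Tcf7l1, Cdkn1a, Fn1 and the primed and differentiation genes were named after their values were seen.

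ESC input libraries held 1778102 to 3983530 miRNA counts and ESC EU libraries 1196 to 131117. Differences were tested two-sided by quasi-likelihood in edgeR 4.0.16 under R 4.3.3, after TMM scaling and its filter on low expression, adjusted by Benjamini-Hochberg over all features and called under 0.05. Counts were summed per course between lines, and over 1 to 4 h for early EU, with all lines in 1 fit. Within ESC, libraries stood in for replicates. DESeq2 1.42.0, RLE size factors, no filter, blocks and left-out replicates were the alternatives. CPM of miRNAs uses the miRNA total of a library, and CPM of genes the scaled total. Half-lives used the EU count per pulldown standard (3 RNAs near 0 in input libraries), less the 0 h value of course 1, with noise 0.2 on a grid of 400 values between 0.25 and 240 h, and were described only. The scripts were tested on simulated data.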

Additional observations from a re-analysis of the deposited data

Results flagged for a closer look

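In 20 sets of ESC input values (10 strands in each course), 3 libraries stood apart from the rest of their set by Dixon's criterion, all in course 2. Chance gives about 1 such set in 20. MiR-302b-3p was lowest in the 24 h library, at 3145 CPM, beside 3501 to 3664 CPM in the others. MiR-302b-5p was highest in the 1 h library, at 55.6 CPM, beside 41.1 to 45.0 CPM in the others. MiR-302d-5p was highest in the same library, at 93.9 CPM, beside 62.2 to 72.7 CPM in the others.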

How the results depend on the processing

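The 5 members stayed lower in course 1 than in course 2 under every alternative run. Against fibroblasts, where they were at or near 0, DESeq2 did not call miR-302a-3p, miR-302c-3p and miR-367-3p in early EU libraries against DMEF (adjusted p 0.0596, 0.0884 and 0.0694), nor miR-302c-3p and miR-367-3p against CIMEF (0.0725 and 0.0557). Counts over all miRNAs moved more, and the cause was not tested. Leaving out 1 course at a time gave 208 to 582 calls for input against DMEF (388 with all), 268 to 569 against CIMEF (459), 163 to 351 for early EU against DMEF (255), 203 to 414 against CIMEF (305), 0 to 220 for early EU minus input (65), 0 to 3 for the input slope (24) and 31 to 67 for the EU slope (71); the lone course is then assumed to vary like the others. The early differentiation genes called against CIMEF numbered 5 to 8 (8 without CIMEF library 2). Early EU minus input gave 26 calls with RLE size factors, and 0 without ESC course 2 or either DMEF course. The input slope gave 97 calls without the 24 h libraries, the EU slope 131 with no filter on low counts and 47 without the earliest libraries, its difference between courses 2 with no filter (1 with it), and the EU difference between courses 28 without time as a factor (49 with it).

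With the course as a replicate block, early EU minus input gave 292 calls; without the replicate block, the input slope gave 10. Against DMEF and CIMEF the block gave 336 and 419 input calls over all miRNAs. Course numbers are shared between lines, but with 2 numbers the correlations of deviations (0.152, 0.123 and 0.289) do not show pairing.

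Early EU minus input changed sign for the guide strands. The ranges over left-out courses were -1.05 to 0.26 (miR-302a-3p), -0.89 to 0.16 (miR-302b-3p), -1.11 to 0.31 (miR-302c-3p), -1.23 to 0.21 (miR-302d-3p) and -0.50 to 0.64 (miR-367-3p), positive without DMEF course 1 or CIMEF course 2. MiR-367-3p was at 0.33 with DESeq2 and 0.34 with RLE size factors, and miR-302d-5p ranged between -0.10 and 2.08. Slopes near 0 also crossed it. Without the replicate block the input slopes were 0.015 (miR-302a-3p), 0.024 (miR-302a-5p), 0.019 (miR-302b-3p), 0.047 (miR-302c-3p), 0.033 (miR-302c-5p), 0.054 (miR-302d-3p) and 0.010 (miR-302d-5p), and the EU slopes -0.004 (miR-302d-3p) and -0.016 (miR-367-3p). Without the 24 h libraries the EU slopes were -0.034 (miR-302d-3p) and -0.087 (miR-367-3p). MiR-302d-3p had an input slope of 0.001 with no filter and of -0.027 to 0.005 with 1 course left out, and an EU slope of -0.013 to 0.125. The input slope of miR-302c-5p was 0.023 without the earliest libraries, and the EU slope difference of miR-302b-3p 0.001 with no filter.

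In course 1 only miR-302b-3p could be fitted, at 9.94 h; in course 2 the median of the 5 members was 11.4 h. These were 0.25 h (the lower end of the range fitted) and 0.552 h per total miRNA count, 4.20 and 7.55 h without the 24 h library, and 17.5 and 3.60 h with the other standards. With noise 0.1 miR-302b-3p gave 12.7 h in course 1. A minimum of 5 counts let all 5 members in there, with a median of 19.5 h and miR-302b-3p at 9.94 h. In course 2 the median was 9.77 h without the 1 h library. Depth limits the early EU values of course 1, where miR-302c-3p rests on 4, 1 and 9 counts at 1, 2 and 4 h.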
